A study of Mus musculus with 4 samples.

Results

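The mitochondrial ribosomal protein genes were taken as the protein-coding genes of GENCODE M1 with a symbol of Mrpl or Mrps followed by a digit, and this gave 77 of the 22367 protein-coding genes of the mouse nuclear genome. A gene was called bound when a Runx3 peak was centred at most 5 kb from any of its annotated transcription start sites (TSS). Of the 77 genes, 36 were bound, through 42 of the 15121 deposited peaks. The symbols fixed the membership and the peaks had no part in it. Mrps36-ps1 has a pseudogene-style symbol, but the annotation lists it as protein-coding and it was kept, while 3 further genes with such symbols are listed as pseudogenes and were left out.

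The peaks came from ChIP-seq of splenic CD4+ dendritic cells (DC), sorted as CD11chiMHCII+CD4+ from approximately 15 mice. The labels name no mutation or treatment, and the study's results section describes the DC as WT. There were 2 samples with an anti-Runx3 antibody made in house and 2 samples of whole cell extract chromatin, the input. The labels give the strain as C57BL/6, except for the second input sample, whose label reads C57BL/7. Peaks were called once, on both Runx3 samples together against both inputs, so no peak has a value for each replicate and no spread between replicates and no test can be given for any value below. The deposited files hold no expression values, and the identity of the sorted cells was not checked against markers.

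Mitochondria carry their own ribosome, which translates the few respiratory chain proteins encoded by mitochondrial DNA. Its protein components are encoded in the nucleus, made in the cytoplasm and imported, and join the mitochondrial rRNAs into a large subunit, which forms the peptide bonds, and a small subunit, which reads the mRNA. Runx3 is a transcription factor of the RUNX family, whose members bind DNA through the Runt domain at the hexamer TGTGGT.

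Of all protein-coding genes, 31.1% were bound under the same rule, beside 46.8% of the mitochondrial ribosomal protein genes (36 of 77, Wilson 95% interval 36.0 to 57.8%). Wilson intervals cover counting error alone and do not treat neighbouring genes that share a peak as linked. A peak centred at most 1 kb from a start site was found for 35 of the 77 genes (45.5%), beside 24.9% of all protein-coding genes. A peak in the upper quartile of scores, at or above 23.19, lay within 5 kb of 12 genes (15.6%), beside 9.24% of all protein-coding genes. Among all protein-coding genes with a CpG-rich promoter, defined below, these shares were 43.2% and 15.0%, close to those of the 77 genes. The score is the value MACS2 wrote for each peak. Its unit is not stated, a higher score marks a stronger call, and scores were compared only within this list. The bound genes lay on 15 chromosomes and the 77 genes on 17. Of the 36 bound genes, 29 had 1 peak, 7 had 2 peaks and 0 had more.

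**Figure D1:**
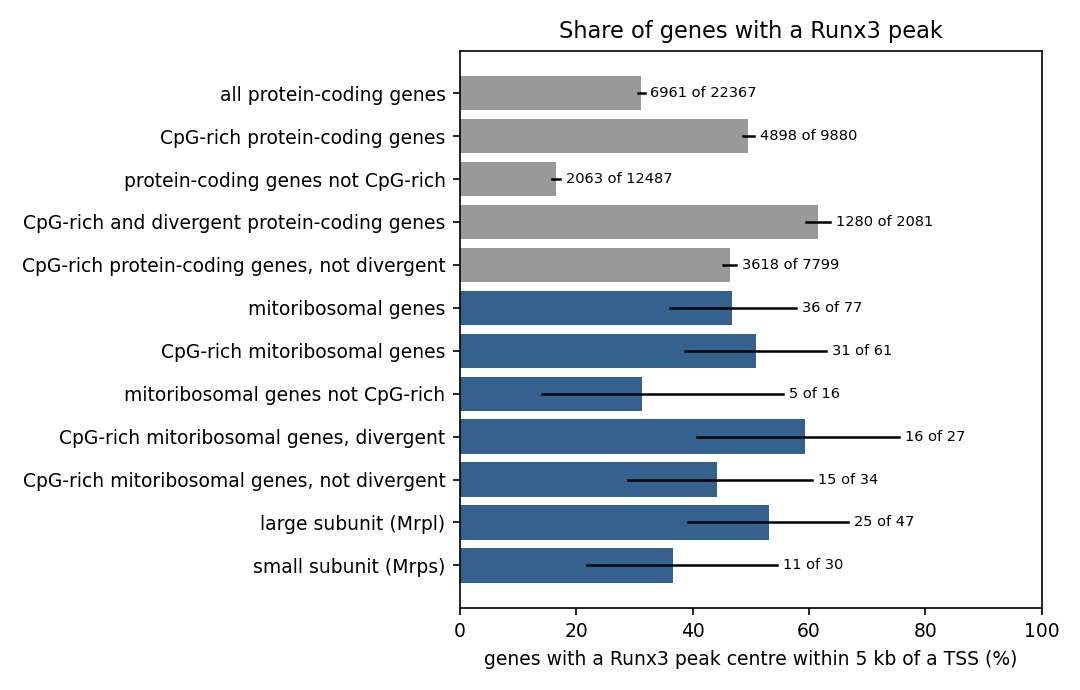
Share of bound genes, those with a Runx3 peak centre at most 5 kb from a start site, in percent, with Wilson 95% intervals as black lines and the counts beside the bars; blue bars are mitochondrial ribosomal protein genes and grey bars all protein-coding genes, each also split by promoter type. The blue bar of all 77 genes stands at 46.8% and the grey bar of all protein-coding genes at 31.1%, while among CpG-rich promoters the bars stand at 50.8% and 49.6%.

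The sequences under the highest-scoring peaks show what Runx3 was found on at these genes. They are the mm9 sequence, printed on the strand of the gene, of the longest stretch within 150 bp of the peak centre that holds at most 30 exonic bases. Stretches shorter than 100 bases were left out, which removed Mrpl18, Mrpl48, Mrps18b, Mrpl33 and Mrpl40. Capitals mark, on either strand, the RUNX hexamer TGTGGT, its variant TGCGGT, and the cores CCGGAAG of ETS factors such as GABP, GCATGCG of NRF1 and AGATGGC of YY1. Mrpl17 is shown from chr7:112959584-112959771 (minus strand), Mrpl45 from chr11:97176813-97177059 (plus strand), Mrpl49 from chr19:6057729-6057892 (minus strand), Mrpl41 from chr2:24830648-24830947 (minus strand) and Mrps30 from chr13:119176030-119176202 (minus strand).
Mrpl17: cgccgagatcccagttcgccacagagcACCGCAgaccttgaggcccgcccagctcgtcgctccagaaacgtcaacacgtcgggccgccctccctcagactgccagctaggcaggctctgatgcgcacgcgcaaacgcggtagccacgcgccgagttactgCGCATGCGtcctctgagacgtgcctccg
Mrpl45: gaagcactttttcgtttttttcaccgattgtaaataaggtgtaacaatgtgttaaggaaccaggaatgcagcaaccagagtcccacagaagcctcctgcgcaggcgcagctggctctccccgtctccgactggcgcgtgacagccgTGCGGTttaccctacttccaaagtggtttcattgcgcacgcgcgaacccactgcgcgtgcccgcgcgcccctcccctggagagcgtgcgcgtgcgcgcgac
Mrpl49: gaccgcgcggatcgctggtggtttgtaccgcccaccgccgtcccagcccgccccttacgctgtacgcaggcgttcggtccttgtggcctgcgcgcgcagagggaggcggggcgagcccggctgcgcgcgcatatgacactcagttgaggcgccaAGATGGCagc
Mrpl41: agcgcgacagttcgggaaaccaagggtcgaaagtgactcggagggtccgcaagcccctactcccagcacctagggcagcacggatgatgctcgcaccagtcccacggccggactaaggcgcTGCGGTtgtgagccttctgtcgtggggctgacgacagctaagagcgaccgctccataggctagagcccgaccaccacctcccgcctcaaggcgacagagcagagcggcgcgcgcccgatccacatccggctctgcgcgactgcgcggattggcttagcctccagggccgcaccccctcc
Mrps30: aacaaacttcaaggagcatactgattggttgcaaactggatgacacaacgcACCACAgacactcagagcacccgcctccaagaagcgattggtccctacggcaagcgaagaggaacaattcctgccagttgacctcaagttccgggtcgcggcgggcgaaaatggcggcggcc

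Of these 5 stretches, the Mrps30 stretch was the only one with TGTGGT, and those of Mrpl17, Mrpl45 and Mrpl41 held the variant TGCGGT. The stretch of Mrpl17 also held GCATGCG on both strands in overlap, close to its TSS.

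Mrpl17, the counterpart of the bacterial large subunit protein L17, had the highest score of all peaks at these genes. Its peak at chr7:112959212-112960033 scored 68.13, rank 507 of 15121, and its centre lay 9 bp upstream of the TSS. The TGTGGT of this peak lay at -287 bp from the TSS and 275 bp from the peak centre, so the hexamer was nearer to the edge of the peak than to its centre. Mrpl45, which anchors the mitoribosome to the inner membrane, followed with a peak at chr11:97176616-97177310 that scored 61.34, rank 639, centred 67 bp upstream of the TSS and without TGTGGT. Mrpl18, the counterpart of bacterial L18, had a peak at chr17:13108840-13109502 that scored 59.95, centred 40 bp downstream of its TSS. This peak held 3 TGCGGT and no TGTGGT, and the TSS of Tcp1, a subunit of the cytosolic chaperonin, was nearer to its centre at 24 bp.

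Mrpl49, Mrpl41 and Mrpl48 encode large subunit proteins without a bacterial counterpart. The Mrpl49 peak at chr19:6057560-6058155 scored 49.02, centred 99 bp upstream of the TSS, and held 2 copies of TGACGT, the core that the study links to the DC factor zDC, but no TGTGGT. The Mrpl41 peak at chr2:24830496-24831101 scored 47.28, centred 180 bp upstream, and held 2 TGTGGT, the nearer of them 211 bp from the centre. The Mrpl48 peak at chr7:107755535-107756477 scored 46.24, was 943 bp wide and held 3 TGCGGT. The Mrpl48 TSS it is assigned to, 146 bp away, starts a transcript that is not protein-coding, and the gene is no longer bound when such transcripts are left out.

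Mrps30 has a small subunit symbol, although structures of the mammalian mitoribosome place the protein in the large subunit. Its peak at chr13:119175841-119176265 scored 35.17, centred 6 bp downstream of the TSS, with TGTGGT at -92 bp. Mrps18b, a paralogue of Mrps18a and Mrps18c, had a peak at chr17:36053297-36054078 that scored 33.24, centred 353 bp upstream of its TSS and 40 bp from that of Ppp1r10. Mrpl33, the counterpart of bacterial L33, differed from the others in the placing of its peak. The peak at chr5:31916957-31917426 scored 32.82, lay 805 bp downstream of an annotated TSS inside the gene record, had TGTGGT at its centre (0 bp), a GC content of 45.7% and a ratio of observed to expected CpG of 0.16. Mrpl40, a large subunit protein without a bacterial counterpart, had a peak at chr16:18876433-18877039 that scored 31.38, centred 104 bp upstream of the TSS, with 2 TGCGGT and no TGTGGT. Of the 10 genes with the highest scores, 6 had no TGTGGT in their highest-scoring peak. The hexamer was present in 54.0% of all peaks and in 33.6% of those within 1 kb of a protein-coding TSS. At CpG-rich TSS it was present in 29.8% of peaks.

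At the low end, Mrps33 had a single peak at chr6:39760949-39761201 with a score of 4.79, rank 13446, although it was centred 88 bp upstream of the TSS and held 2 TGTGGT, the nearer 17 bp from the centre. Mrpl10, Mrpl32, Mrpl47 and Mrps12 each had a single peak that scored 5.96, tied at rank 12259, at chr11:96902508-96902988, chr13:14705407-14705676, chr3:32635639-32636046 and chr7:29527090-29527420 in this order. None of these 4 peaks held TGTGGT, and all were centred nearer to the TSS of another gene. The lowest peak of all 42 was the second peak of Mrpl38, in an intron at chr11:115997590-115997852, with a score of 3.17 and a TGTGGT 115 bp from its centre. The median score of the 42 peaks was 16.2 with TGTGGT and 13.8 without it, beside 14.2 and 10.53 over all peaks.

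The 42 peaks scored 3.17 to 68.13 with a median of 14.58 (order-statistic 95% interval 11.24 to 22.49). The median of all peaks was 12.14 and that of the 5486 peaks within 1 kb of a protein-coding TSS was 12.69. The interval includes both of these medians. In the upper quartile of the list were 14 of the 42 peaks (33.3%), beside 24.5% of the peaks within 1 kb of a protein-coding TSS and 25.4% of all peaks. These differences in score were not tested. The median width was 463 bp, beside 430 bp for those promoter peaks. By score, 24 of the 42 peaks were at or above the list median.

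**Figure D2:**
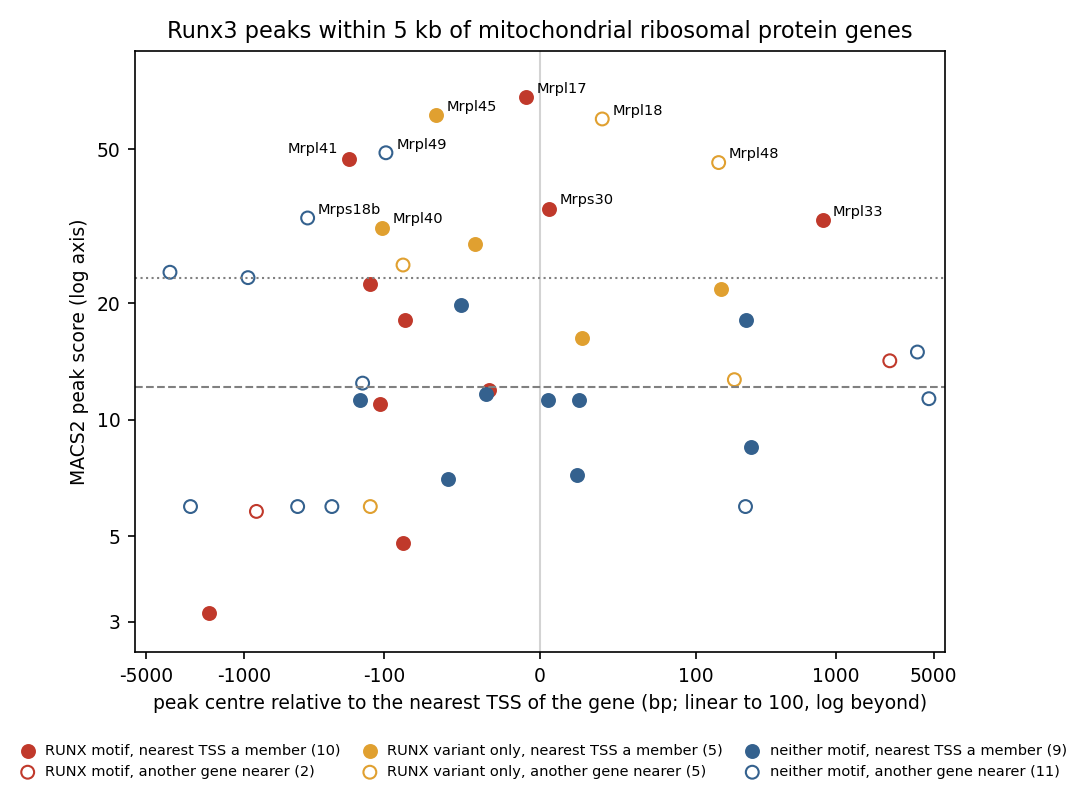
Score of each of the 42 peaks (log axis) against the position of its centre relative to the nearest TSS of its mitochondrial ribosomal protein gene in bp (linear to 100 bp, logarithmic beyond; upstream is negative). Colour gives the RUNX motif or its variant and filled points are peaks whose nearest annotated TSS belongs to a mitochondrial ribosomal protein gene (a member); the dashed and dotted lines are the median (12.14) and upper quartile (23.19) of all peaks, and the 10 named points scored 31.38 to 68.13.

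Most of these peaks lay over the promoter. Of the 42 peaks, 36 (85.7%, 72.2 to 93.3%) were centred at most 1 kb from the start site, 31 at most 250 bp and 17 at most 100 bp, with a median distance of 135 bp. Of the 7617 peaks within 5 kb of any protein-coding TSS, 72.0% lay within 1 kb of one. This share counts any protein-coding TSS, whereas the 85.7% counts the TSS of the mitochondrial ribosomal protein genes alone, so the measures differ. The interval of 29 peaks (69.0%, 54.0 to 80.9%) covered the TSS itself. Centres lay upstream of the TSS for 26 peaks and downstream for 16. By their centres, 17 peaks fell in exons, 5 in introns and 20 between protein-coding genes. Just inside the 5 kb limit were peaks of Mrps16 at 4626 bp and of Mrpl38 at 3832 bp, and just outside it was the peak nearest to Mrps31, at 5405 bp. Mrps16, the counterpart of bacterial S16, also had a peak 149 bp upstream of its TSS.

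The large subunit genes with a peak were Mrpl2, Mrpl4, Mrpl9, Mrpl10, Mrpl11, Mrpl15, Mrpl17, Mrpl18, Mrpl30, Mrpl32, Mrpl33, Mrpl36, Mrpl38, Mrpl40, Mrpl41, Mrpl43, Mrpl45, Mrpl46, Mrpl47, Mrpl48, Mrpl49, Mrpl51, Mrpl52, Mrpl54 and Mrpl55, or 25 of 47 (53.2%, 39.2 to 66.7%). Those with a small subunit symbol were Mrps7, Mrps11, Mrps12, Mrps14, Mrps15, Mrps16, Mrps18a, Mrps18b, Mrps27, Mrps30 and Mrps33, or 11 of 30 (36.7%, 21.9 to 54.5%). This split is by symbol and not by subunit. For example, Mrps30, placed in the large subunit, and Mrps36, known as a subunit of another complex, were counted with the small subunit symbols. The subunit of the other proteins was not checked. The intervals of the symbol groups overlapped, and the difference was not tested. By ancestry, 21 of the 46 genes with a bacterial homologue (45.7%) and 15 of the other 31 (48.4%) were bound. Among the bound genes, Mrps12 encodes the protein of the decoding centre and Mrpl11 a protein of the stalk base. Mrpl12, which forms the stalk that recruits translation factors, and Mrpl3 and Mrpl16, near the peptidyl transferase centre, had no peak within 5 kb. Of the paralogues of bacterial S18, Mrps18a had a peak of score 19.78 and Mrps18b one of 33.24, and Mrps18c had none.

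**Figure D3:**
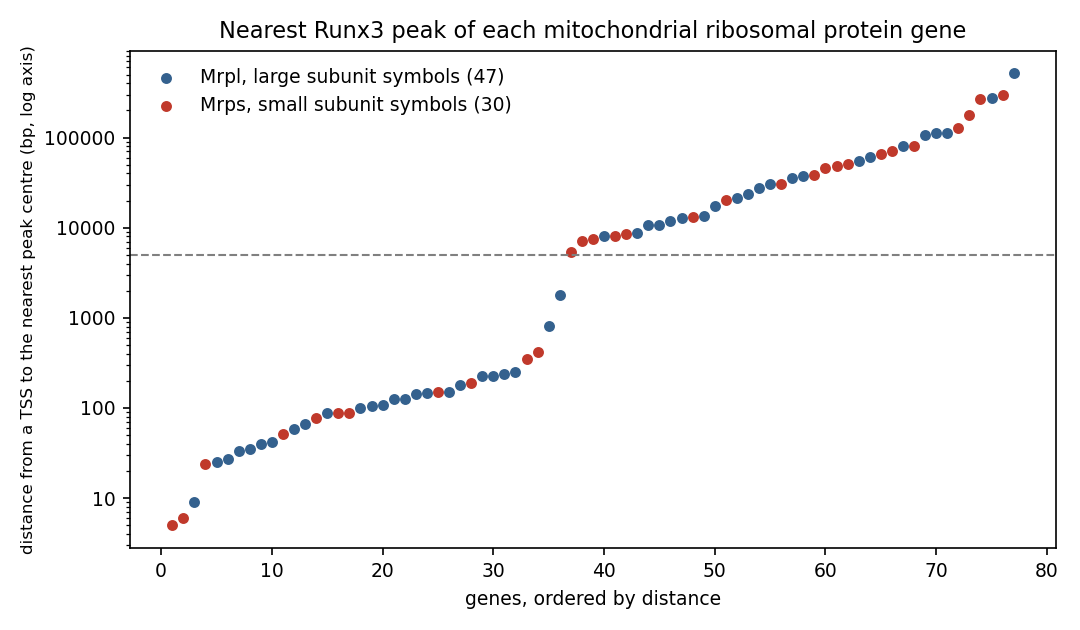
Distance in bp (log axis) from a TSS to the nearest Runx3 peak centre for each of the 77 genes, in order of distance, with large subunit symbols in blue and small subunit symbols in red; the dashed line is the 5 kb limit. The points rise in a step between the 36 genes below the line and the 41 above it, from 1780 bp at Mrpl38 to 5405 bp at Mrps31.

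The 41 genes without a peak within 5 kb had their nearest peak 5405 to 514990 bp away, with a median of 35859 bp. For 7 of them, namely Mrps31, Mrps23, Mrps21, Mrpl14, Mrps28, Mrps34 and Mrpl20, it lay within 10 kb. The nearest peak of Mrps21, at 7489 bp, scored 54.74 and was the highest of these 7. For 16 genes it lay beyond 50 kb, namely Mrps2, Mrpl35, Mrpl3, Mrps26, Mrps17, Mrpl12, Mrps5, Mrpl27, Mrpl50, Mrpl37, Mrps10, Mrps9, Mrps35, Mrpl13, Mrps36-ps1 and Mrpl19. The farthest was that of Mrpl19, at 514990 bp. The other 18 unbound genes were Mrpl28, Mrpl44, Mrpl1, Mrpl42, Mrps36, Mrpl24, Mrpl21, Mrps6, Mrpl39, Mrpl34, Mrpl22, Mrpl53, Mrps25, Mrpl23, Mrpl16, Mrps22, Mrps24 and Mrps18c. Mrps36 is named as a ribosomal protein but is known as a subunit of the oxoglutarate dehydrogenase complex. A gene without a peak had none called at the depth of these libraries, which was not analysed here.

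A peak near a mitochondrial ribosomal protein gene was not always nearest to that gene. The nearest annotated TSS belonged to a mitochondrial ribosomal protein gene for 24 of the 42 peaks (57.1%, 42.2 to 70.9%) and to another gene for 18. For 11 of the 36 bound genes every peak within 5 kb was nearest to a gene other than a mitochondrial ribosomal protein gene. Mrps11 is not counted here, because the nearest TSS to its single peak was that of Mrpl46. In order of score they began with Mrpl18 (Tcp1 nearer), Mrpl49 (Fau, a ubiquitin-like fusion with a cytoplasmic ribosomal protein, nearer), Mrpl48 (Rab6, a GTPase of Golgi traffic, nearer), Mrps18b (Ppp1r10, a phosphatase regulator, nearer) and Mrps27. The Mrps27 peak, at chr13:100114357-100114949 with a score of 25.12, was centred 88 bp upstream of the Mrps27 TSS and 20 bp from that of Ptcd2, which also encodes a mitochondrial protein. The other 6 were Mrps7, Mrpl55, Mrpl10, Mrpl32, Mrpl47 and Mrps12. Near 2 of them the closer gene also acts in mitochondria: Ndufb5, a subunit of complex I, beside Mrpl47, and Sars2, the mitochondrial seryl-tRNA synthetase, beside Mrps12. A peak at such a site cannot be assigned to either gene from these data.

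Many of these genes share their promoter region with another gene. A promoter was called divergent when a TSS of another protein-coding gene lay on the opposite strand, at most 1 kb to either side, and this held for 28 of the 77 genes (36.4%), beside 12.0% of all protein-coding genes. Of the 28 divergent genes 17 were bound (60.7%, 42.4 to 76.4%), beside 58.5% of all divergent protein-coding genes. Of the other 49 genes 19 were bound (38.8%, 26.4 to 52.8%), beside 31.1% of all protein-coding genes, divergent ones included. Among these 49 genes, 34 had a CpG-rich promoter, defined below, and they are set beside CpG-rich genes of the same kind there. Mrpl46 and Mrps11 are divergent partners of each other, with start sites 53 bp apart, and shared 1 peak of score 11.24 that covered both start sites. It was the only peak shared by a pair of these genes. Mrpl43 faces Peo1, the mitochondrial DNA helicase Twinkle, and its peak of score 11.67 was centred 35 bp upstream of the Mrpl43 TSS. Mrpl40 faces Hira, a histone chaperone.

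A promoter was called CpG-rich when the 1 kb around the most 5' TSS of the gene had a GC content of at least 50% and a ratio of observed to expected CpG of at least 0.6. This held for 61 of the 77 genes (79.2%), beside 44.2% of all protein-coding genes. Of the CpG-rich genes, 31 of 61 were bound (50.8%, 38.6 to 62.9%), beside 49.6% of all CpG-rich protein-coding genes. Of the genes not CpG-rich, 5 of 16 were bound (31.2%, 14.2 to 55.6%), beside 16.5% of all such genes, and these 5 were Mrpl45, Mrpl33, Mrps18a, Mrpl11 and Mrpl46. Mrpl45, with a GC content of 49.5%, and Mrps18a and Mrpl11, each with a ratio of 0.59, lay just under a limit. The peaks of Mrpl33 and Mrpl46 were assigned to another TSS than the most 5' one, so the class does not describe the bound start site. The interval of the 5 of 16 genes includes 16.5%, and the difference was not tested. Genes with a promoter both CpG-rich and divergent were bound in 16 of 27 cases (59.3%), beside 61.5% of all such genes. CpG-rich genes without a divergent partner were bound in 15 of 34 cases (44.1%), beside 46.4%. In each of these 3 CpG-rich classes the share of the mitochondrial ribosomal protein genes stood close to that of all genes of the class, which lay inside its interval.

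The hexamer TGTGGT was present on either strand in 12 of the 42 peaks (28.6%, 17.2 to 43.6%). Over all peaks it was present in 54.0%, in 33.6% of the peaks within 1 kb of a protein-coding TSS and in 29.8% of those at CpG-rich TSS. The study reports the RUNX motif in a larger share of its Runx3-occupied regions. It identified motifs de novo, which is a different measure from the exact hexamer counted here. In the central 200 bp it was present in 5 of the 42 peaks (11.9%, 5.19 to 25%), beside 41.8% of all peaks and 17.8% of the peaks at CpG-rich TSS. These 5 were the peaks of Mrpl33, Mrps33, Mrpl52 and Mrps30 and the second, weaker peak of Mrpl18. The variant TGCGGT was in 13 of the 42 peaks (31.0%), beside 20.1% of all peaks and 31.8% of those at CpG-rich TSS. TGTGGT or TGCGGT was in 22 of 42 peaks (52.4%), beside 66.5% and 53.7%.

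The next 4 sequences contrast 2 peaks with TGTGGT within 100 bp of the centre, those of Mrpl52 and Mrps33, with 2 peaks over the start site without it, those of Mrps14 and Mrpl15. Mrpl52 and Mrps33 were chosen after their values were seen. The marks are as above, and the stretches are chr14:55045469-55045768 (plus strand), chr6:39760958-39761201 (minus strand), chr1:162125201-162125375 (plus strand) and chr1:4775791-4776011 (minus strand).
Mrpl52: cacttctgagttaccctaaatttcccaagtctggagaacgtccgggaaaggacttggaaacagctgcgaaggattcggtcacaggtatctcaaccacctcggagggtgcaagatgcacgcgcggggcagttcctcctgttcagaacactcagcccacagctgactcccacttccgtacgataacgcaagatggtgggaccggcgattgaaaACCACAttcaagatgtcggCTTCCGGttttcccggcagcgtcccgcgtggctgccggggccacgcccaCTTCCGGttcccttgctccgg
Mrps33: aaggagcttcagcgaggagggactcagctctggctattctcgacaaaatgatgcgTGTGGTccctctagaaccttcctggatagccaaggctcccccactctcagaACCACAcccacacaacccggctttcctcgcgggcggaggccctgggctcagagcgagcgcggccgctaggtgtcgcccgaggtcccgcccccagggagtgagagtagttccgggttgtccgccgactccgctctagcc
Mrps14: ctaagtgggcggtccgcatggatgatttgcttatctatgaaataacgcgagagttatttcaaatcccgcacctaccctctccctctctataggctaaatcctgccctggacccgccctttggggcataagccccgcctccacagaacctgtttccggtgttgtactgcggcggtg
Mrpl15: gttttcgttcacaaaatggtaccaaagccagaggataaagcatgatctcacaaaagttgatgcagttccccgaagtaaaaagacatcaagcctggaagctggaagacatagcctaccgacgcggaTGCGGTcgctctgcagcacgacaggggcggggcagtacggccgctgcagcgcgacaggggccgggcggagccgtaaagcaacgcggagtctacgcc

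The Mrpl52 peak scored 22.49 and its stretch held 1 TGTGGT, at -66 bp from the TSS, and 2 CCGGAAG. The Mrps33 stretch held 2 TGTGGT. The Mrps14 peak, centred 5 bp downstream of the TSS, scored 11.24, and its stretch held none of the marked motifs. The Mrpl15 peak scored 28.55, and its stretch held 1 TGCGGT. The Mrps33 peak had the lowest score of these 4, but Mrpl52 and Mrps33 were chosen with their values known, so no relation of motif and score can be read from this. The peaks with TGTGGT in the central 200 bp scored 35.17 (Mrps30), 32.82 (Mrpl33), 22.49 (Mrpl52), 5.79 (second peak of Mrpl18) and 4.79 (Mrps33).

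Among the 36 peaks at most 1 kb from the start site of the gene, the ETS core CCGGAAG was in 36.1% (22.5 to 52.4%), beside 26.4% of the 4165 peaks at CpG-rich TSS and 11.0% of all peaks. The YY1 core AGATGGC was in 25% (13.8 to 41.1%), beside 11.5% and 9.40%. The NRF1 core GCATGCG was in 13.9% (6.08 to 28.7%), beside 8.62% and 4.19%. These factors are known regulators of nuclear genes for mitochondrial proteins. The zDC core TGACGT was in 16.7%, beside 18.7% and 11.0%, the SP core GGGCGG in 61.1%, beside 70.7% and 31.7%, and the NFY core CCAAT in 47.2%, beside 47.3% and 41.7%. In the 32 of these peaks that lay at CpG-rich TSS, AGATGGC was in 21.9% (11.0 to 38.8%), an interval that includes the 11.5% of all peaks at CpG-rich TSS. The differences were not tested.

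**Figure D4:**
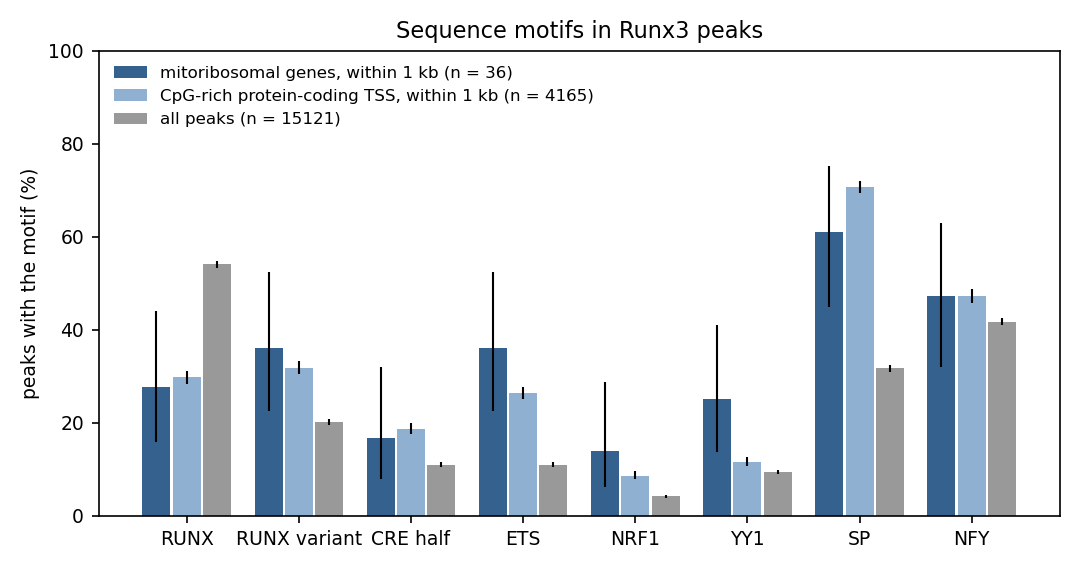
Share of peaks, in percent, that hold each of the 8 motifs on either strand, for the 36 peaks within 1 kb of a mitochondrial ribosomal protein gene (dark blue), all peaks within 1 kb of a CpG-rich protein-coding TSS (light blue) and all peaks (grey), with Wilson 95% intervals as black lines. The RUNX bars stand at 27.8%, 29.8% and 54.0%, and the YY1 bars at 25%, 11.5% and 9.40%.

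The same motifs were counted in the 1 kb around the TSS, with or without a peak. CCGGAAG was in 53.2% of the 77 promoters, beside 31.1% of all CpG-rich and 19.1% of all protein-coding promoters, and it was in 50.0% of the bound and 56.1% of the unbound genes. TGTGGT was in 44.2% of the 77 promoters, beside 31.2% of all CpG-rich and 42.1% of all protein-coding promoters, and in 41.7% of the bound and 46.3% of the unbound genes. TGCGGT was in 44.4% of the bound and 26.8% of the unbound genes, beside 33.1% of all CpG-rich promoters, 38.9% of the CpG-rich ones with a peak within 1 kb and 22.1% of all protein-coding promoters. AGATGGC was in 28.6% of the 77 promoters, beside 18.2% of all CpG-rich and 19.7% of all protein-coding promoters. These differences between bound and unbound genes were not tested.

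Genes that work with the mitoribosome were examined by the same rule, from lists chosen with results of these data known. The counts stand beside 31.1% of all protein-coding genes and 49.6% of the CpG-rich ones that were bound. All 7 mitoribosomal proteins with other symbols had a peak within 5 kb: Aurkaip1 (score of the highest peak 28.55), Dap3 (18.13), Ict1 (12.69), Ptcd3 (9.84), Chchd1 (4.79), Gadd45gip1 (4.23) and Mrp63 (2.67). Of these scores 4 of 7 were below the list median of 12.14. Of the mitochondrial translation factors 5 of 11 were bound, among them the elongation factor Tufm (15.44) and its exchange factor Tsfm (38.11), while the initiation factor Mtif2 and the elongation factor Gfm1 had no peak. Of the mitochondrial aminoacyl-tRNA synthetases 12 of 20 were bound (60.0%, 38.7 to 78.1%), such as the methionyl-tRNA synthetase Mars2 (46.24) and Cars2 (31.34). That list also counts Qrsl1, an amidotransferase subunit without a peak. Of the factors that assemble the mitoribosome 13 of 20 were bound (65.0%, 43.3 to 81.9%), an interval that includes the 49.6% of CpG-rich genes, such as the GTPase Gtpbp10 (33.24) and the rRNA methyltransferase Tfb1m (23.19).

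Of 13 nuclear regulators of mitochondrial genes 10 were bound, among them Gabpb1 (41.11), Gabpa (7.06), Myc (28.55) and Yy1 (27.88), while Nrf1, Ppargc1a and Polrmt had no peak within 5 kb. Genes for subunits of the respiratory chain and ATP synthase (OXPHOS) were taken by symbol, and 44 of 86 were bound (51.2%, 40.8 to 61.4%), beside 31.1% of all protein-coding and 49.6% of CpG-rich genes. This list was not checked by function, includes Cox4nb, which is not such a subunit, and counts Ndufb8 more than once. Of the cytoplasmic ribosomal protein genes, taken by symbol, 60 of 134 were bound (44.8%, 36.6 to 53.2%). That list held 53 genes with a pseudogene-style symbol (-ps), of which 4 were bound, and without them 56 of 81 were bound (69.1%, 58.4 to 78.1%), a split made after the values were seen. On the same footing 36 of 76 mitochondrial ribosomal protein genes were bound (47.4%, 36.5 to 58.4%), and the difference between the families was not tested. The median score was 9.73 for the peaks of OXPHOS genes and 11.24 for those of cytoplasmic ribosomal protein genes, beside 14.58 for the mitochondrial ribosomal protein genes. An upper-quartile peak lay within 5 kb of 6 of the 86 OXPHOS genes (6.98%), of 16 of the 134 cytoplasmic ribosomal protein genes (11.9%, or 19.8% of the 81 without -ps symbols) and of 12 of the 77 mitochondrial ribosomal protein genes (15.6%). The share was 9.24% of all protein-coding genes and 15.0% of the CpG-rich ones.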

How the data were processed

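Runx3 ChIP-seq was measured in 2 Runx3 immunoprecipitates and 2 whole cell extract samples of splenic CD4+ DC. The authors aligned 50 bp reads uniquely to mm9 with bowtie and called peaks with MACS2 on the pooled samples. The submitters' processing notes also name CASAVA 1.8, and the versions of bowtie and MACS2 and the calling threshold are not given in the sources used here. The deposited list holds the start, end and MACS2 score of each peak, and the unit of this score is not stated. The number of reads per sample was not analysed here, although the study states the aligned reads of the pooled libraries, and the absence of a peak means that none was called.

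From this list, peaks were assigned to genes of GENCODE M1 by the distance from the peak centre to any TSS. Sequences came from NCBIM37, the assembly of mm9, and positions are counted from 1. CpG content was computed in 500 bp on each side of the most 5' TSS of the gene. Motifs were searched as exact letters on both strands. No value exists per replicate, so counts, medians and shares were set beside those of all genes or all peaks, without tests. The 10 bound genes with the highest score, the 3 with the lowest, which a tie extended to 5, and 5 examples of genes whose peaks were nearest another gene, were described in full. The genes, lists and motifs were chosen with earlier results of these data known. Printed sequences were shortened to hold at most 30 exonic bases. The counting was tested on simulated peaks. Alternatives were other distances, sets of TSS, score limits, assignment rules, motif windows and CpG limits. The scripts ran in Python 3.11.15 with pandas 2.3.3, numpy 2.4.6 and scipy 1.17.1, and plots were drawn in matplotlib 3.10.9.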

Additional observations from a re-analysis of the deposited data

How the results depend on the processing

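Of 26 alternative values, 19 stayed within the limits set for no change, which were 1.5 times for a count of genes and the 95% interval for a share or median. The count of 36 bound genes became 21 with peaks at or above the list median score (27.3%, beside 17.9% of all protein-coding genes). With peaks at or above the upper quartile it became 12 (15.6%, beside 9.24%). Of all CpG-rich protein-coding genes, 15.0% had an upper-quartile peak. The share of peaks with TGTGGT, 28.6%, became 52.4% with TGTGGT or TGCGGT and 11.9% in the central 200 bp. The count of 31 bound CpG-rich genes became 15 of 24 with the stricter limits of 0.75 and 55% (51.3% of all such genes) and 15 of 26 with 1000 bp on each side of the TSS (49.7%), since fewer genes were then CpG-rich. The count of bound genes was 35 within 1 kb, without Mrpl38, and 43 within 10 kb (55.8%, beside 36.7% of all protein-coding genes). It fell to 25 when each peak was given to its nearest protein-coding TSS alone. That was 32.5% of the 77 genes, beside 26.7% of all protein-coding genes, so the shares were closer under this rule than the 46.8% and 31.1% of the main rule. Without -ps symbols, an alternative chosen after seeing the data, 36 of 76 genes were bound, and the share of cytoplasmic ribosomal protein genes rose from 44.8% to 69.1%. With 1 TSS for each gene Mrpl33 was no longer bound.

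No paired analysis was possible because the deposited list is 1 call on both replicates together. No fit without a replicate was run, since the list has no column per sample. The spread between replicates is unknown for every value here, and reads per peak were not analysed. Peaks at start sites shared with another gene cannot be assigned to either gene.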
